A study of Homo sapiens with 12 samples.

Results

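The 8 genes described here make proteins that drive or regulate translation elongation, bind the poly(A) tail or belong to the same class of translationally controlled mRNAs. They are EEF1A1, EEF1B2, EEF1G, EEF2, EEF2K, PABPC1, TPT1 and HNRNPA1. They were followed in human HEK293T Flp-In cells, an embryonic kidney line made for site-specific gene insertion, after 2 h with girolline at 1 or 10 µM or with its solvent DMSO. Girolline is a small molecule first isolated from a marine sponge, and the study's title ties it to eIF5A, the factor that helps the ribosome form difficult peptide bonds. The 12 libraries were of 3 kinds: disome footprints (mRNA protected by a pair of adjoining ribosomes), monosome footprints (mRNA protected by 1 ribosome) and RNA-seq of mRNA. Each kind had 1 library at 10 µM, 1 at 1 µM and 2 with DMSO. Nothing in the sources used here states that the DMSO libraries are separate cultures, so p-values reflect only how far these samples spread, and that spread may be technical. The cells are 1 established line, and each dose has no replicate of its own.

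Members were chosen by transcript ID: ENST00000309268 for EEF1A1, ENST00000392222 for EEF1B2, ENST00000329251 for EEF1G, ENST00000309311 for EEF2, ENST00000263026 for EEF2K, ENST00000318607 for PABPC1, ENST00000530705 for TPT1 and ENST00000340913 for HNRNPA1. 1 row per gene was taken among 100283 coding rows of the monosome tables, and 1 row per gene among 93916 coding rows of the RNA and disome tables, so that all 8 genes were found in all 12 libraries. The 2 groups of tables use different transcript IDs, and rows were paired by their order and coding length. The rows of EEF1A1, EEF1G, EEF2 and HNRNPA1 were paired alike whether the alignment was traced from the first row or from the last. EEF1B2 and PABPC1 were paired only in the trace from the last row, and EEF2K only in that from the first. TPT1 was paired in neither trace, and its row was taken as the single row of its length, 173 codons with the stop codon, between paired neighbours. That step departs from the alignment rule.

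During elongation, eEF1A brings each aminoacyl-tRNA to the ribosome as a complex with GTP, and the eEF1B complex recharges it. EEF1A1 encodes the carrier, EEF1B2 the exchange subunit and EEF1G a structural subunit of that complex. EEF2 encodes the GTPase that moves the ribosome by a codon, and EEF2K encodes the kinase that inhibits eEF2 by phosphorylation. PABPC1 encodes the main cytoplasmic poly(A)-binding protein, TPT1 a growth-associated protein known as translationally controlled tumor protein, and HNRNPA1 a mostly nuclear RNA-binding protein of pre-mRNA splicing. Many such mRNAs begin with a C followed by an unbroken run of pyrimidines, the 5′ terminal oligopyrimidine (TOP) motif, through which mTOR and LARP1 control their translation. EEF2K is a regulator of elongation and not an elongation factor itself.

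Bases at annotated gene starts are shown because the TOP motif is read at the first transcribed bases. The starts used in these cells were not measured, so a gene without a run here may still make TOP mRNA. RefSeq gene starts (GRCh38.p14), matched by symbol, are given for 6 of the 8 genes. Each window holds 5 bases before the start and 25 from the start on, and capitals mark a run of C and T that begins with C at the start and has at least 5 letters.
EEF1A1, chr6:73521008-73521037, minus strand: acgttCTTTTTCgcaacgggtttgccgcca
EEF1B2, chr2:206159890-206159919, plus strand: cgggtCCTTTTTCCTCTCTTCagcgtgggg
EEF2, chr19:3985439-3985468, minus strand: gcgttCTCTTCCgccgtcgtcgccgccatc
TPT1, chr13:45341159-45341188, minus strand: tcggcCTTTTCCgcccgctcccccctcccc
EEF1G, chr11:62573867-62573896, minus strand: ggcttactttgcggcagcgccgagaacccc
EEF2K, chr16:22206273-22206302, plus strand: cttctgctcaacctagaccagccccagctt

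EEF1A1, EEF2 and TPT1 each began with a run of 7 pyrimidines and EEF1B2 with one of 16. The windows of EEF1G and EEF2K held no such run at the listed start. EEF1B2 has another listed start, chr2:206159609, where its RefSeq gene span begins, and that window, not printed, holds none either. Of the 7 starts listed for these 6 genes, 4 had such a run. Among all 35116 starts of the table, searched on the gene's own strand, 1429 (4.07%) had such a run. A match describes these letters and is not a site of control. HNRNPA1, at chr12:54280726-54287087 of the same build, and PABPC1 are given without sequence.

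Counts are given as normalised counts per 1000000 counts (CPM), the count divided by the library's effective size, so each is a share of its library. In such bulk libraries fewer cells and less RNA per cell cannot be told apart. Library totals were 3091715 to 5769026 counts for disomes, 21570489 to 38074691 for monosomes and 28424272 to 42194871 for RNA. The 8 rows took 0.863 to 0.959% of the counts of a disome library, 0.566 to 0.603% of a monosome library and 0.755 to 0.879% of an RNA library, each a share of the table's counts after rows with identical counts were merged. Rows of 1 gene share reads, and how reads matching several places were handled is not given in the sources used here. EEF1A1, PABPC1, TPT1 and HNRNPA1 have processed pseudogene copies in the genome, so their levels carry that uncertainty in every library. Copies of the remaining genes were not assessed, so none of the 8 genes is taken to be free of it.

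Levels in DMSO were set per 100 counted codons, which allows genes of unlike length to be compared, and the 8 genes differed widely. EEF1A1 was highest in all 3 kinds, at 1020 CPM per 100 codons in disomes, 625 in monosomes and 1174 in RNA. EEF2K was lowest in all 3 kinds, at 0.975 in disomes, 0.753 in monosomes and 1.33 in RNA on the same scale. In monosomes the order below EEF1A1 was EEF2 (184), HNRNPA1 (119), EEF1G (111), TPT1 (96), EEF1B2 (80.3) and PABPC1 (33.6). In RNA it was TPT1 (268), EEF1G (220), HNRNPA1 (178), EEF2 (155), EEF1B2 (111) and PABPC1 (24). TPT1 thus stood next to EEF1A1 by mRNA, but below EEF2, HNRNPA1 and EEF1G by monosome footprints. In disomes the order below EEF1A1 was EEF2 (262), HNRNPA1 (217), EEF1G (118), TPT1 (50.9), EEF1B2 (37.1) and PABPC1 (26.9). With 2 DMSO libraries per kind these orders are descriptions.

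**Figure D1:**
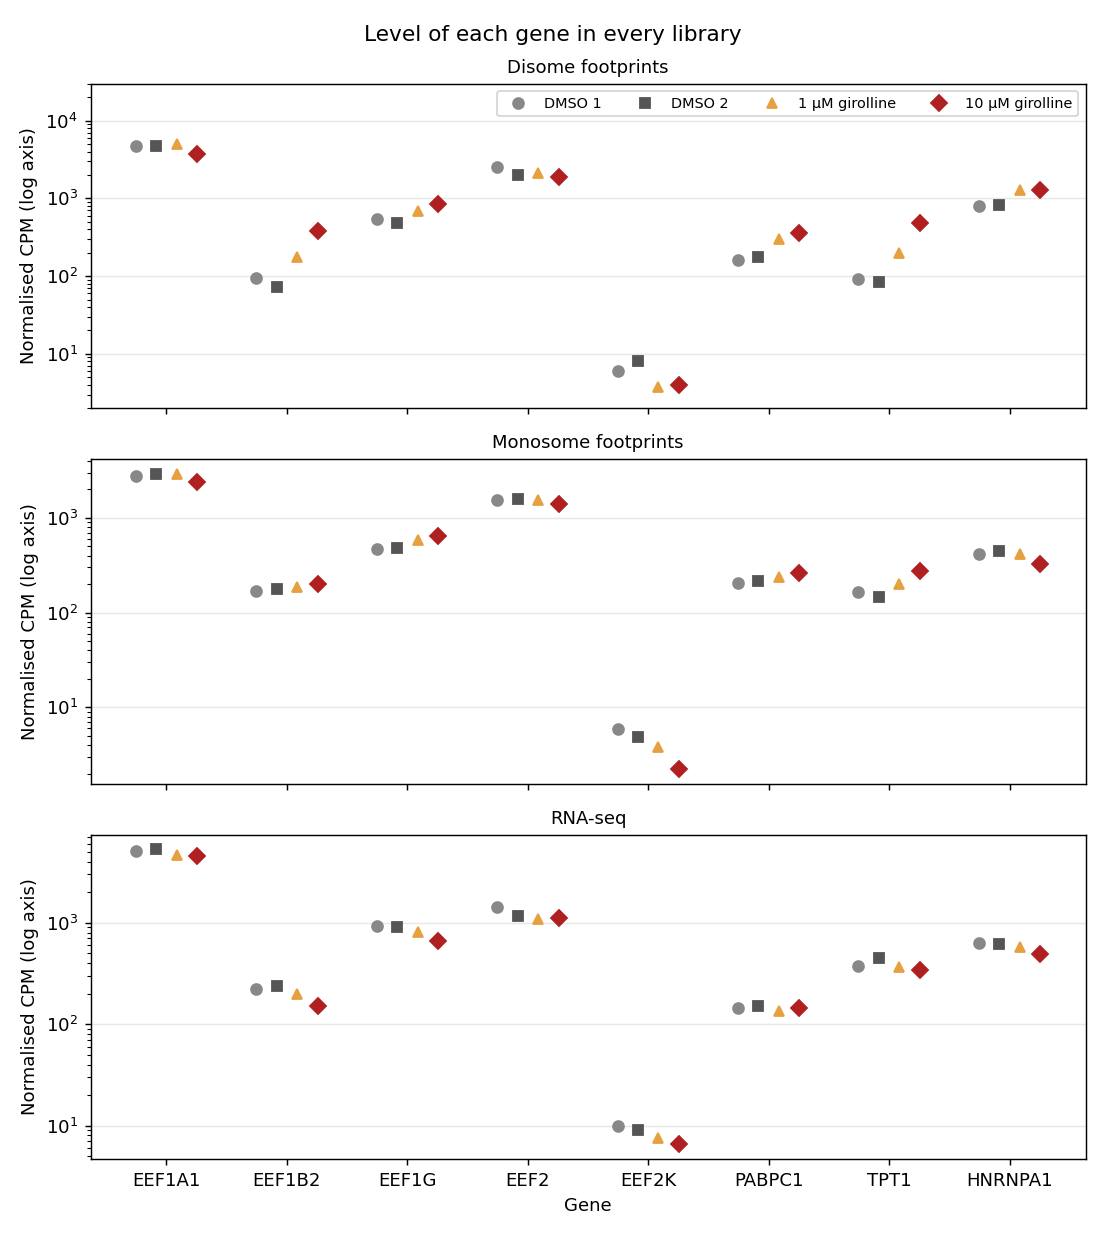
Normalised CPM (log axis) of each gene in every library, by kind of library; grey symbols are the 2 DMSO libraries, triangles 1 µM and diamonds 10 µM girolline. In disomes EEF1B2 and TPT1 climb at each dose, whereas EEF1A1 and EEF2 stay near or below their DMSO levels.

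Disome footprints at 10 µM separated the genes. TPT1, EEF1B2, PABPC1, EEF1G and HNRNPA1 rose, EEF1A1 fell, and EEF2 and EEF2K were not called. The rises ran from 5.5-fold for TPT1 to 1.59-fold for HNRNPA1. In all, 5 of 8 genes were called higher, against 20.8% of the 34606 transcripts tested, and 1 of 8 lower, against 14.9%, by the quasi-likelihood test of edgeR at a Benjamini-Hochberg adjusted p of 0.05. Above both DMSO libraries lay 5 of the 8, and below both 3, beside 42.5% and 42.2% of all transcripts. The median log2 fold change of the 8 genes was 0.69, beside -0.02 over all transcripts tested.

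TPT1 had 92.6 and 83.4 CPM in the DMSO libraries, 196 CPM at 1 µM and 483 CPM at 10 µM in disomes. Both girolline libraries lay above both DMSO libraries, and 10 µM lay above 1 µM. Its log2 fold change was 2.46 ± 0.16 (SE) at 10 µM (adjusted p = 8.98e-50) and 1.16 ± 0.17 at 1 µM (adjusted p = 1.17e-09). A change of like size was seen for EEF1B2, with 95.2 and 72.4 CPM in DMSO, 179 CPM at 1 µM and 384 CPM at 10 µM. Its log2 fold change was 2.21 ± 0.17 at 10 µM (adjusted p = 5.47e-38) and 1.11 ± 0.17 at 1 µM (adjusted p = 2.87e-08). Between the 2 doses, TPT1 was higher at 10 µM than at 1 µM by 1.30 ± 0.19 on the log2 scale and EEF1B2 by 1.10 ± 0.19. Those contrasts had adjusted p-values of 3e-09 for TPT1 and 1.79e-06 for EEF1B2, against 7.69% of all transcripts called higher. EEF1A1 was the 1 gene called lower between the doses (-0.40 ± 0.11, adjusted p = 0.00374), against 4.36%.

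The poly(A)-binding gene PABPC1 had 163 and 179 CPM in DMSO, 301 CPM at 1 µM and 359 CPM at 10 µM. HNRNPA1 had 804 and 815 CPM in DMSO, 1291 CPM at 1 µM and 1289 CPM at 10 µM. Both genes had most of their disome rise at the lower dose, and neither was called between the doses. The log2 difference between 10 and 1 µM was 0.25 ± 0.18 for PABPC1 (adjusted p = 0.414), and for HNRNPA1 the fold between those doses was 0.999 (adjusted p = 0.998). PABPC1 rose by 1.07 ± 0.16 on the log2 scale at 10 µM (adjusted p = 1.87e-10) and by 0.81 ± 0.16 at 1 µM (adjusted p = 2.63e-05). HNRNPA1 rose by 0.67 ± 0.12 at both doses (adjusted p = 3.17e-07 at 10 µM and 2.93e-06 at 1 µM).

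EEF1G, the structural subunit beside EEF1B2, had 544 and 490 CPM in DMSO, 692 CPM at 1 µM and 842 CPM at 10 µM. Both girolline values of EEF1G lay above both DMSO values, as did 42.5% of all transcripts at 10 µM and 38.3% at 1 µM, each dose taken alone. Its log2 fold change was 0.70 ± 0.13 at 10 µM (adjusted p = 1.11e-06) and 0.42 ± 0.13 at 1 µM (adjusted p = 0.0281). The call of EEF1G at 1 µM was lost without the second DMSO disome library (0.39, adjusted p = 0.0724), with total-count scaling (0.36, adjusted p = 0.0839), with 1 transcript per block of 10 rows (0.43, adjusted p = 0.0551) and by the DESeq2 Wald test (0.41, adjusted p = 0.428).

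The tRNA carrier EEF1A1 had 4726 and 4719 CPM in DMSO, 4955 CPM at 1 µM and 3761 CPM at 10 µM. Only the 10 µM library stood below the others, with a log2 fold change of -0.33 ± 0.09 (adjusted p = 0.00216). In the fit of all kinds together, EEF1A1 was not called without the first or the second DMSO monosome library (-0.27 each, adjusted p = 0.12 and 0.118), and with all 12 libraries it was called (-0.27, adjusted p = 0.0363). The call was also lost with the replicate block in that fit (-0.24, adjusted p = 0.0849) and by the DESeq2 Wald test (-0.33, adjusted p = 0.276). The translocase gene EEF2 had 2516 and 1983 CPM in DMSO, 2128 CPM at 1 µM and 1896 CPM at 10 µM. The DMSO libraries of EEF2 differed by more than the girolline libraries did, and the log2 fold change at 10 µM was -0.25 ± 0.11 (adjusted p = 0.0598). EEF2 passed the threshold without the second DMSO disome library (-0.40, adjusted p = 0.0158), with total-count scaling (-0.35, adjusted p = 0.00493) and with DESeq2 size factors (-0.25, adjusted p = 0.0489). EEF2K gave few disome reads, 16 and 38 counts in DMSO, 15 at 1 µM and 19 at 10 µM. Its change of -0.87 ± 0.42 at 10 µM was not called (adjusted p = 0.0914), so a difference was not detectable at this depth.

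At 1 µM, the same 5 genes were called higher in disomes, against 5.4% of all transcripts, and none of the 8 was called lower, against 1.67%. The share called in either direction was 12.4% among transcripts with a mean of at least 10 CPM. Above both DMSO libraries lay 6 genes and below both 1, beside 38.3% and 37.2% of all transcripts. The comparisons at 1 and 10 µM share their DMSO libraries. The median log2 fold change of the 8 genes was 0.55 at 1 µM, beside -0.01 over all transcripts. In disomes at 1 µM, EEF1A1 stood at 0.07 ± 0.09, EEF2 at -0.08 ± 0.11 and EEF2K at -0.95 ± 0.44 on the log2 scale, with adjusted p-values of 0.735, 0.741 and 0.202.

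**Figure D2:**
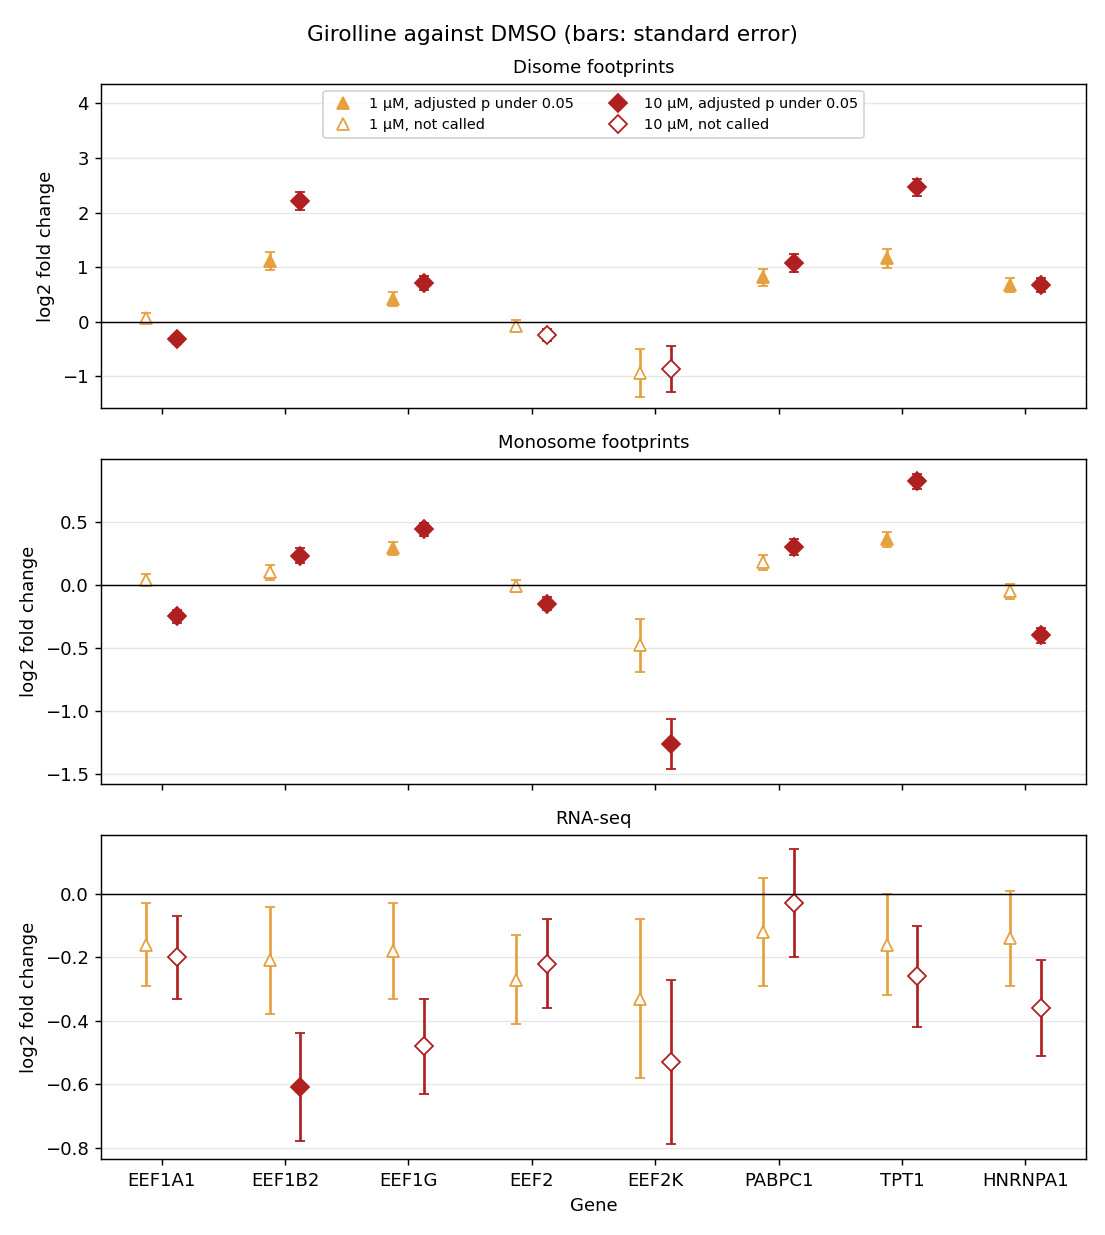
Log2 fold change of each gene (girolline over DMSO, with standard error) in disome, monosome and RNA libraries at 1 µM (triangles) and 10 µM (diamonds); filled symbols passed the adjusted p of 0.05. TPT1 and EEF1B2 reach 2.46 and 2.21 in disomes at 10 µM, EEF2K reaches -1.26 in monosomes, and every RNA value lies below 0.

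Short coding regions tended to gain disomes in the whole table, and TPT1 and EEF1B2 are the shortest of the 8 genes, so each value was set beside transcripts of like length. TPT1 has 173 codons, stop codon included. Among 8637 transcripts of 100 to 199 codons the median log2 disome change at 10 µM was 0.34, and TPT1 stood at the percentile 95.1 of them. EEF1B2 has 226 codons and stood at the percentile 95.6 of 5447 transcripts of 200 to 299 codons, whose median was 0.26. PABPC1 is a long coding region of 637 codons. Among 7697 transcripts of 500 to 999 codons the median was -0.26, and PABPC1 stood at the percentile 95.4 in that class, beside 82.8 in the whole table. EEF2 (859 codons) lay at the percentile 50.7 of the same class and EEF2K (726 codons) at 17.7. In the class of 300 to 499 codons, with a median of 0.05, EEF1G lay at the percentile 76, HNRNPA1 at 74.8 and EEF1A1 at 33.1. These percentiles are descriptions of where each gene lies, with no test.

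**Figure D3:**
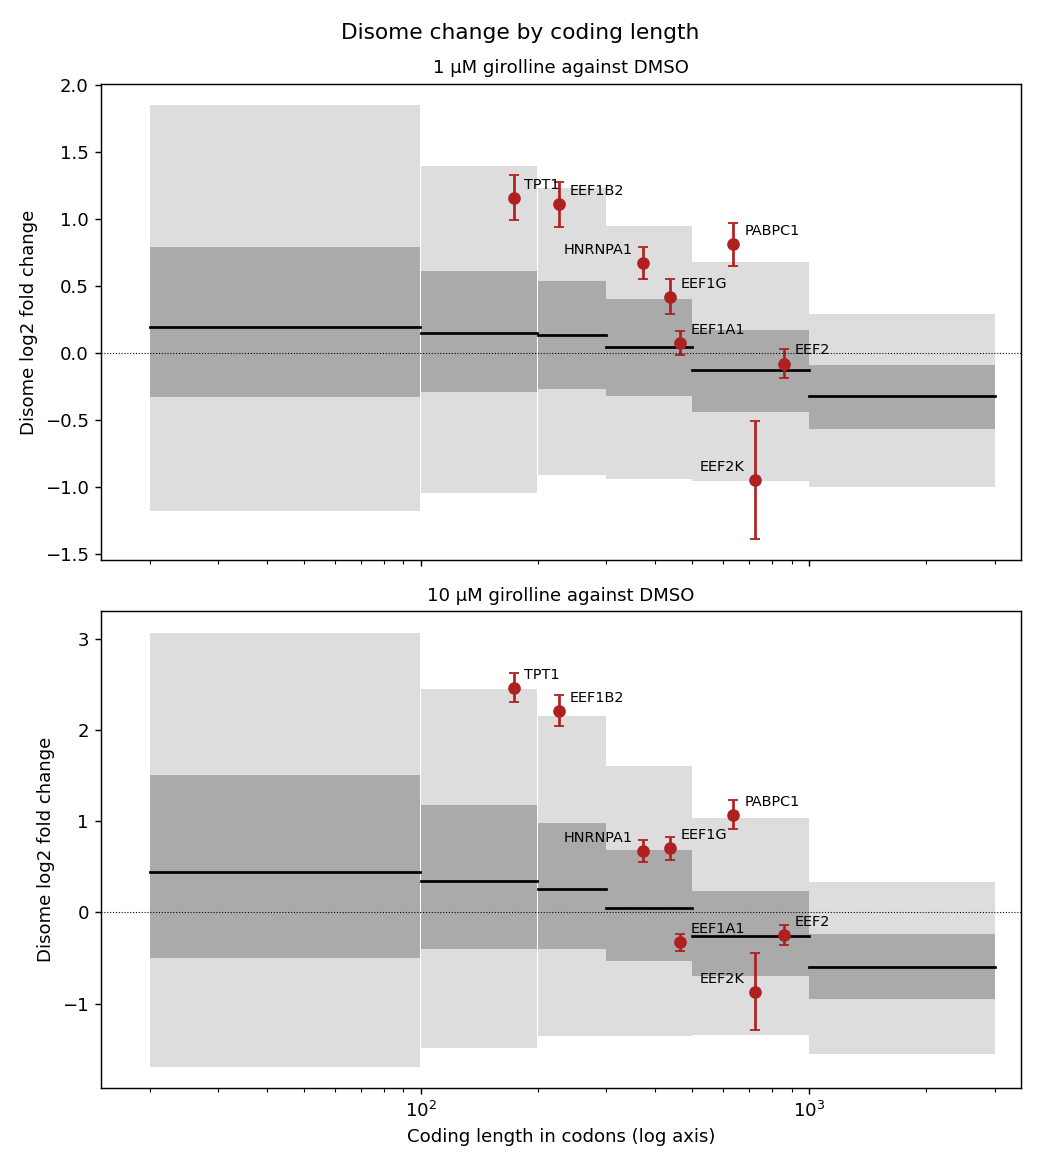
Disome log2 fold change (with standard error) of the 8 genes against coding length in codons (log axis) at 1 and 10 µM, girolline over DMSO; black lines, dark bands and light bands give the median, the quartile range and the 5th to 95th percentiles of all tested transcripts in each of 6 length classes, the outer of which are open-ended and drawn in part. At 10 µM, TPT1, EEF1B2 and PABPC1 sit at the upper edge of their classes, and EEF2 sits at the median of its class.

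Monosome footprints changed in both directions at 10 µM, and for 7 of the 8 genes by less than disomes did, EEF2K being the exception (-1.26 in monosomes and -0.87 in disomes). TPT1, EEF1G, PABPC1 and EEF1B2 rose, and EEF2K, HNRNPA1, EEF1A1 and EEF2 fell. Thus 4 of 8 genes were called higher, against 16.5% of the 55409 transcripts tested, and 4 of 8 lower, against 15.7%. Likewise 4 lay above both DMSO libraries and 4 below both, beside 43% and 40.5% of all transcripts. Where the mean was at least 10 CPM, 52.4% of transcripts were called in either direction. Of the 7 genes tested there, 4 were called higher and 2 lower. The members' median log2 fold change was 0.04, beside 0.01 over all transcripts. The fit of all kinds, with its shared estimate of the spread over 12 libraries, called 4 of the 8 (TPT1, EEF1G, EEF2K and HNRNPA1). In that fit 2 were called without the first or without the second DMSO monosome library, TPT1 and EEF2K, and 5 without either DMSO disome library.

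EEF2K, the eEF2 kinase, had the largest fall of the 8 in monosomes. It had 136 and 133 counts in DMSO, 65 at 1 µM and 70 at 10 µM, which made 5.92 and 4.86 CPM in DMSO, 3.84 CPM at 1 µM and 2.24 CPM at 10 µM. Both girolline libraries lay below both DMSO libraries, as did 40.5% of all transcripts at 10 µM and 36.9% at 1 µM, each dose taken alone. The log2 fold change was -1.26 ± 0.20 at 10 µM (adjusted p = 1.91e-07) and -0.48 ± 0.21 at 1 µM (adjusted p = 0.319). At 10 µM, EEF2K lay at the percentile 1.37 of all transcripts tested in monosomes. It was lower at 10 µM than at 1 µM by -0.78 ± 0.27 (adjusted p = 0.0403). Between the doses, 3 of the 8 genes were called lower in monosomes, EEF2K, HNRNPA1 and EEF1A1, against 6.31% of all transcripts, and 1 higher, TPT1, against 5.76%.

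TPT1 had 166 and 147 monosome CPM in DMSO, 201 CPM at 1 µM and 277 CPM at 10 µM. Its log2 fold change in monosomes was 0.82 ± 0.06 at 10 µM (adjusted p = 2.27e-22) and 0.36 ± 0.06 at 1 µM (adjusted p = 5.8e-05). EEF1G had 470 and 477 CPM in DMSO, 581 CPM at 1 µM and 644 CPM at 10 µM, with log2 fold changes of 0.44 ± 0.05 at 10 µM (adjusted p = 2.45e-11) and 0.29 ± 0.05 at 1 µM (adjusted p = 0.00016). These were the 2 genes called higher in monosomes at 1 µM, against 1.04% of all transcripts, and none was called lower, against 0.711%. At 1 µM, 5 of the 8 lay above both DMSO libraries and 2 below both, beside 37.5% and 36.9% of all transcripts. Both calls at 1 µM were lost in the fit of all 12 libraries, with adjusted p = 0.846 for TPT1 and 0.924 for EEF1G, at log2 fold changes of 0.36 and 0.29.

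EEF1B2, whose disomes rose 4.62-fold, had 169 and 178 monosome CPM in DMSO, 186 CPM at 1 µM and 203 CPM at 10 µM. That is a log2 fold change of 0.23 ± 0.06 at 10 µM (adjusted p = 0.00164). PABPC1 had 206 and 215 CPM in DMSO, 238 CPM at 1 µM and 260 CPM at 10 µM, a change of 0.30 ± 0.06 at 10 µM (adjusted p = 1.62e-05). HNRNPA1 had 417 and 444 CPM in DMSO, 416 CPM at 1 µM and 327 CPM at 10 µM. Its log2 monosome change at 10 µM was -0.40 ± 0.06 (adjusted p = 1.08e-08), the opposite direction to its disomes. EEF1A1 had 2760 and 2899 CPM in DMSO, 2915 CPM at 1 µM and 2371 CPM at 10 µM, and its change at 10 µM was -0.25 ± 0.05 (adjusted p = 1.14e-05). EEF2 had 1542 and 1575 CPM in DMSO, 1545 CPM at 1 µM and 1409 CPM at 10 µM, with a change of -0.15 ± 0.05 at 10 µM (adjusted p = 0.0188). In the fit of all 12 libraries the monosome calls at 10 µM of EEF1B2 (adjusted p = 0.237), EEF2 (0.459), PABPC1 (0.0843) and EEF1A1 (0.0741) were lost. The EEF2 call was also lost in edgeR with total-count scaling (adjusted p = 0.197) and with a mean of at least 10 CPM (0.186). By the DESeq2 Wald test neither EEF2 (adjusted p = 0.137) nor EEF1B2 (0.118) was called.

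In RNA the 8 genes shared a direction but few passed the test. At 10 µM, EEF1B2 was the single gene called lower, 1 of 8 against 0.571% of the 56229 transcripts tested, and none of the 8 was called higher, against 0.537%. All 8 log2 fold changes lay between -0.61 and -0.03 at 10 µM and between -0.33 and -0.12 at 1 µM. The members' medians were -0.31 and -0.17, beside -0.01 over all transcripts at each dose. With a mean of at least 10 CPM, 3.85% of transcripts were called in either direction at 10 µM, beside 1.11% in the main fit. At 10 µM, 7 of the 8 genes lay below both DMSO libraries and 0 above both, beside 36.7% and 35.3% of all transcripts. At 1 µM all 8 lay below both and 0 above, beside 27.9% and 27.6%.

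EEF1B2 had 223 and 236 RNA CPM in DMSO, 199 CPM at 1 µM and 150 CPM at 10 µM. Its log2 mRNA change at 10 µM was -0.61 ± 0.17 (adjusted p = 0.0366), while its disomes rose. EEF1G had 933 and 910 CPM in DMSO, 813 CPM at 1 µM and 661 CPM at 10 µM, with a change of -0.48 ± 0.15 at 10 µM (adjusted p = 0.0891). HNRNPA1 had 635 and 623 CPM in DMSO, 571 CPM at 1 µM and 491 CPM at 10 µM, a change of -0.36 ± 0.15 (adjusted p = 0.337). TPT1 had 371 and 449 CPM in DMSO, 368 CPM at 1 µM and 341 CPM at 10 µM, and its DMSO libraries differed by more than the lower of them did from either girolline library. EEF2K had 9.83 and 9 CPM in DMSO, 7.5 CPM at 1 µM and 6.52 CPM at 10 µM, a change of -0.53 ± 0.26 at 10 µM (adjusted p = 0.433). EEF1A1 had 5118 and 5282 CPM in DMSO, 4653 CPM at 1 µM and 4533 CPM at 10 µM. EEF2 had 1425 and 1176 CPM in DMSO, 1080 CPM at 1 µM and 1115 CPM at 10 µM. PABPC1 moved least, with 144 and 152 CPM in DMSO, 136 CPM at 1 µM and 145 CPM at 10 µM, and its change of -0.03 at 10 µM changed sign across alternative fits (-0.07 to 0.02).

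The fit of all kinds called 2 of the 8 genes lower in RNA at 10 µM, EEF1B2 and EEF1G (adjusted p = 0.00149 and 0.00595). In that fit 4 were called without the first DMSO RNA library (EEF1B2, EEF1G, HNRNPA1 and TPT1), 5 without the second (EEF1B2, EEF1G, HNRNPA1, EEF2 and EEF2K) and 3 without either DMSO disome library. Without a DMSO RNA library each RNA group holds 1 library, which is then assumed to vary like the DMSO pairs of disomes and monosomes, and the monosome pair varied less than the RNA pair (biological coefficient of variation 3.85% and 11.8%). DESeq2 called none of the 8. At 1 µM, edgeR called 0 of 56229 transcripts in RNA (0%), and DESeq2 called 0 of the 8 genes. The 557 transcripts at an unadjusted edgeR p under 0.05 are a smaller share than 0.05, so missing calls do not show unchanged RNA. On that same assumption EEF2 was called lower at 1 µM without the second DMSO RNA library (-0.40, adjusted p = 0.0376), and it was not called with all 12 libraries (-0.27, adjusted p = 1).

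Disomes were then set against monosomes in 1 model of all 12 libraries, which tests whether disomes changed by another factor than monosomes did. EEF1B2, TPT1, HNRNPA1 and PABPC1 gained disomes relative to monosomes at both doses. At 10 µM, 4 of 8 genes were called higher, against 9.07% of the 48640 paired transcripts tested, and none lower, against 3.3%. At 1 µM it was 4 of 8, against 1.33%, and none lower, against 0.142%. The median log2 change of the 8 genes was 0.63 at 10 µM and 0.41 at 1 µM, beside 0.01 and -0.00 over all paired transcripts.

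The ratio of disome to monosome CPM per counted codon was 0.538 and 0.389 for EEF1B2 in DMSO, 0.918 at 1 µM and 1.8 at 10 µM. For TPT1 it was 0.526 and 0.534 in DMSO, 0.922 at 1 µM and 1.64 at 10 µM. Both genes had ratios below that of EEF1G in DMSO (1.13 and 1) and above it at 10 µM (1.28). HNRNPA1 had the highest ratio in every library, 1.88 and 1.79 in DMSO, 3.02 at 1 µM and 3.84 at 10 µM. For PABPC1 the ratio was 0.778 and 0.821 in DMSO, 1.25 at 1 µM and 1.36 at 10 µM. In log2 terms the changes at 10 µM were 2.04 ± 0.19 for EEF1B2 (adjusted p = 5.12e-14), 1.70 ± 0.18 for TPT1 (adjusted p = 2.11e-11), 1.13 ± 0.16 for HNRNPA1 (adjusted p = 5.83e-08) and 0.82 ± 0.18 for PABPC1 (adjusted p = 0.000412). At 1 µM they were 1.04 ± 0.19 for EEF1B2 (adjusted p = 0.000249), 0.83 ± 0.19 for TPT1 (adjusted p = 0.00475), 0.75 ± 0.16 for HNRNPA1 (adjusted p = 0.00186) and 0.66 ± 0.18 for PABPC1 (adjusted p = 0.0337). Without either DMSO monosome library 2 of the 8 genes were called at 1 µM. PABPC1 was lost without either (adjusted p = 0.25 and 0.344), TPT1 without the first (0.173) and HNRNPA1 without the second (0.101). Single DMSO disome libraries mattered too, since PABPC1 was lost without the first (0.0753) and TPT1 without the second (0.078). PABPC1 was lost as well with total-count scaling (0.109), with 1 transcript per block of 10 rows (0.0505) and by the DESeq2 Wald test (0.06).

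EEF1A1 and EEF2 kept their ratios near the DMSO values. The ratio for EEF1A1 was 1.68 and 1.59 in DMSO, 1.66 at 1 µM and 1.55 at 10 µM. On the log2 scale EEF1A1 stood at -0.02 ± 0.14 at 10 µM (adjusted p = 0.992). For EEF2 it was 1.61 and 1.24 in DMSO, 1.36 at 1 µM and 1.33 at 10 µM. On the log2 scale EEF2 stood at -0.04 ± 0.16 at 10 µM (adjusted p = 0.937). EEF1G stood at 0.32 ± 0.16 at 10 µM (adjusted p = 0.202), and EEF2K at 0.44 ± 0.49 (adjusted p = 0.658). Missing the threshold does not show that these genes kept a constant ratio, and the standard error of EEF2K spans a wide range.

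**Figure D4:**
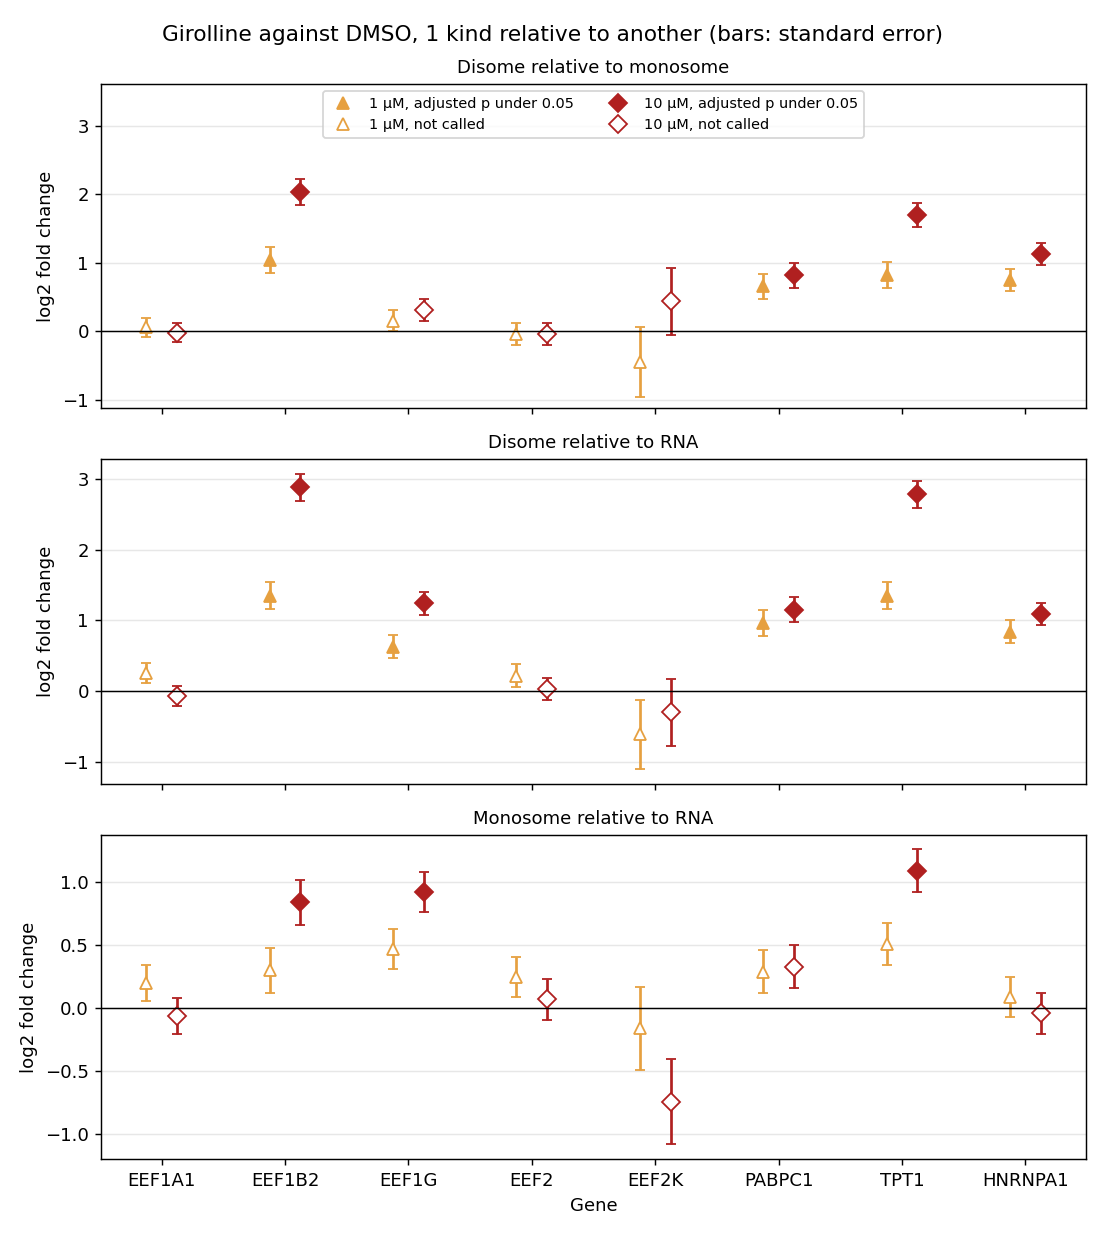
Log2 change (girolline over DMSO, with standard error) of 1 kind of library relative to another for each gene, at 1 µM (triangles) and 10 µM (diamonds); filled symbols passed the adjusted p of 0.05. EEF1B2, TPT1, HNRNPA1 and PABPC1 are filled at both doses for disome over monosome, and EEF1A1 and EEF2 lie near 0 at 10 µM in all 3 ratios.

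Relative to mRNA, 5 of the 8 genes gained disomes at 10 µM, against 13.5% of paired transcripts, and none lost them, against 8.02%. The same 5 genes were called at 1 µM, against 2.25%, and none lower, against 0.366%. The call of EEF1G at 1 µM was lost without the first or the second DMSO monosome library (0.63 each, adjusted p = 0.0876 and 0.086) and with total-count scaling (0.50, adjusted p = 0.0735). At 10 µM the log2 changes were 2.88 ± 0.19 for EEF1B2 (adjusted p = 5.58e-21), 2.78 ± 0.19 for TPT1 (adjusted p = 8.77e-21), 1.24 ± 0.16 for EEF1G (adjusted p = 2.05e-09), 1.15 ± 0.18 for PABPC1 (adjusted p = 3.73e-07) and 1.09 ± 0.16 for HNRNPA1 (adjusted p = 6.94e-08). For EEF1B2 the change is 7.38-fold, with a disome to RNA ratio per codon of 0.389 and 0.28 under DMSO, 0.82 at 1 µM and 2.33 at 10 µM. EEF1A1 stood at -0.07 ± 0.14 at 10 µM (adjusted p = 0.775), EEF2 at 0.03 ± 0.16 (adjusted p = 0.94) and EEF2K at -0.30 ± 0.47 (adjusted p = 0.727).

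Monosomes relative to mRNA are a usual measure of translational efficiency, but they show neither ribosome speed nor protein output. This ratio rose for TPT1, EEF1G and EEF1B2 at 10 µM. That is 3 of 8 genes, against 5.55% of paired transcripts, with none lower, against 4.07%. The log2 changes were 1.09 ± 0.17 for TPT1 (adjusted p = 5.49e-06), 0.92 ± 0.16 for EEF1G (adjusted p = 1.78e-05) and 0.84 ± 0.18 for EEF1B2 (adjusted p = 0.000574). TPT1 had the lowest monosome to RNA ratio per codon of the 8 in DMSO, at 0.419 and 0.308, with 0.512 at 1 µM and 0.761 at 10 µM. EEF1G had 0.492 and 0.512 in DMSO, 0.698 at 1 µM and 0.951 at 10 µM. EEF2K had 0.594 and 0.533 in DMSO, 0.505 at 1 µM and 0.338 at 10 µM. The log2 change of EEF2K at 10 µM was -0.74 ± 0.34 (adjusted p = 0.169), so its fall in monosomes was not resolved from that in mRNA. At 1 µM none of the 8 was called by edgeR, against 0.00617% of transcripts called higher and 0% lower, and EEF1G (0.47 ± 0.16) and TPT1 (0.51 ± 0.17) had unadjusted p-values of 0.00353 and 0.00455. Without the first DMSO RNA library, TPT1 was called at 1 µM (0.64, adjusted p = 0.0136).

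Within the eEF1 machinery, the carrier and the 2 eEF1B subunit genes can be set side by side, with no test between genes. At 10 µM, EEF1A1, EEF1G and EEF1B2 had log2 disome changes of -0.33, 0.70 and 2.21. In monosomes the same genes changed by -0.25, 0.44 and 0.23, and in RNA by -0.20, -0.48 and -0.61. Among the 6 genes whose starts are given, the 4 with a pyrimidine run at a listed start are EEF1A1, EEF1B2, EEF2 and TPT1. No start is given for PABPC1 or HNRNPA1. EEF1B2 has the run only at its second listed start and none where its gene span begins. These 4 genes include both the highest disome changes of the 8 and values below 0. EEF1G, whose listed start carries none, rose in disomes and monosomes alike.

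The tables hold shorter coding rows close to each gene's row, with lengths of truncated isoforms. Where such a row lies in the same gene, its reads report a part of the coding region. A change in its share of the gene's counts may then reflect where footprints lie, which was not tested. The share of RNA counts can change as well. The files do not name the gene of these rows, and their position within the coding region is not given. The row of largest change within 5 rows on each side was picked after values were seen, among rows of at least 50 codons and 50 disome counts, so what follows is a description with no test. Intervals are 95% exact binomial (Clopper-Pearson) and cover counting error only. Rows also needed, in every library, RNA counts per codon between 0.25 and 4 times the gene's. Their RNA and disome counts could not exceed the gene's own. No row near EEF1G met all these limits, which does not show that EEF1G lacks shorter rows. For EEF2K none could meet them, since the gene itself had 15 to 38 disome counts per library.

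Beside EEF1A1, a row of 145 codons (uc063poy.1), or 31.3% of the length, held 27.8 and 31.7% of the gene's disome counts in DMSO, 34.1% at 1 µM and 59.8% at 10 µM (interval 59.1 to 60.5%). Its share of monosome counts was 31.8% in both DMSO libraries, 34.8% at 1 µM and 42.8% at 10 µM, and its share of RNA counts ran from 31.9 to 35% over the 4 libraries. On the scale of the gene's normalised CPM, the EEF1A1 row had 1310 and 1500 disome CPM in DMSO, 1690 CPM at 1 µM and 2250 CPM at 10 µM. Beside PABPC1, a row of 108 codons (uc064pcb.1), 17% of the length, held 12.8 and 13.4% of disome counts in DMSO, 22.7% at 1 µM and 33.5% at 10 µM (31.3 to 35.8%). The same row held 14.1 to 16.8% of PABPC1 monosome counts and 8.72 to 9.07% of RNA counts in every library. For both genes the disome share at 10 µM lies outside the intervals of both DMSO libraries, which the picking of the row favours. The DMSO intervals of the EEF1A1 row, 27 to 28.5% and 31.1 to 32.4%, do not overlap each other either. The RNA share of both rows stays within a few points.

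Other rows beside PABPC1 moved both ways, so this description rests on 1 picked row per gene. The PABPC1 rows uc064pcd.1 and uc064pcc.1 had higher disome shares at 10 µM (22.6% and 25.8%) than in DMSO (11.4 to 12.4%). The row uc064pco.1 held 51.1 and 42% of PABPC1 disome counts in DMSO, 39.7% at 1 µM and 29.1% at 10 µM, and uc011lhc.2 held 93.8 and 93.4% in DMSO, 88.4% at 1 µM and 80.7% at 10 µM.

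The row of largest change beside TPT1, and that beside HNRNPA1, had a lower disome share at 10 µM. For TPT1, a row of 77 codons (uc058wtx.1), 44.5% of the length, held 41.4 and 40.9% of disome counts in DMSO, 37% at 1 µM and 14.2% at 10 µM (12.8 to 15.7%). Its monosome share was 29.2 and 27.2% in DMSO, 31.9% at 1 µM and 30.6% at 10 µM, and its RNA share varied between 14.9 and 24.2%. On the scale of the gene's normalised CPM, the TPT1 row had 38.3 and 34.1 disome CPM in DMSO, 72.4 CPM at 1 µM and 68.8 CPM at 10 µM. For HNRNPA1, a row of 145 codons (uc058ovq.1), 38.9% of the length, held 41.7 and 37.9% of disome counts in DMSO, 33.1% at 1 µM and 25.6% at 10 µM (24.5 to 26.7%), while its monosome share was 39.6 and 39.7% in DMSO, 41% at 1 µM and 43.6% at 10 µM. EEF1B2 differed from these, with a row of 123 codons (uc061rta.1), 54.4% of the length, at 53.9 and 50.1% in DMSO, 52.7% at 1 µM and 57.8% at 10 µM (55.5 to 60.1%). Its interval at 10 µM overlaps that of each DMSO library, 47.6 to 60.1% and 44.7 to 55.6%. EEF2 had a row of 85 codons (uc060rtm.1), 9.9% of the length, with 2.38 and 2.67% of disome counts in DMSO, 1.29% at 1 µM and 1.22% at 10 µM. The monosome share of that row was also lower, at 3.1 and 3.41% in DMSO, 2.92% at 1 µM and 2.12% at 10 µM. Its RNA share was 3.49 and 3.64% in DMSO, 3.1% at 1 µM and 3.11% at 10 µM.

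**Figure D5:**
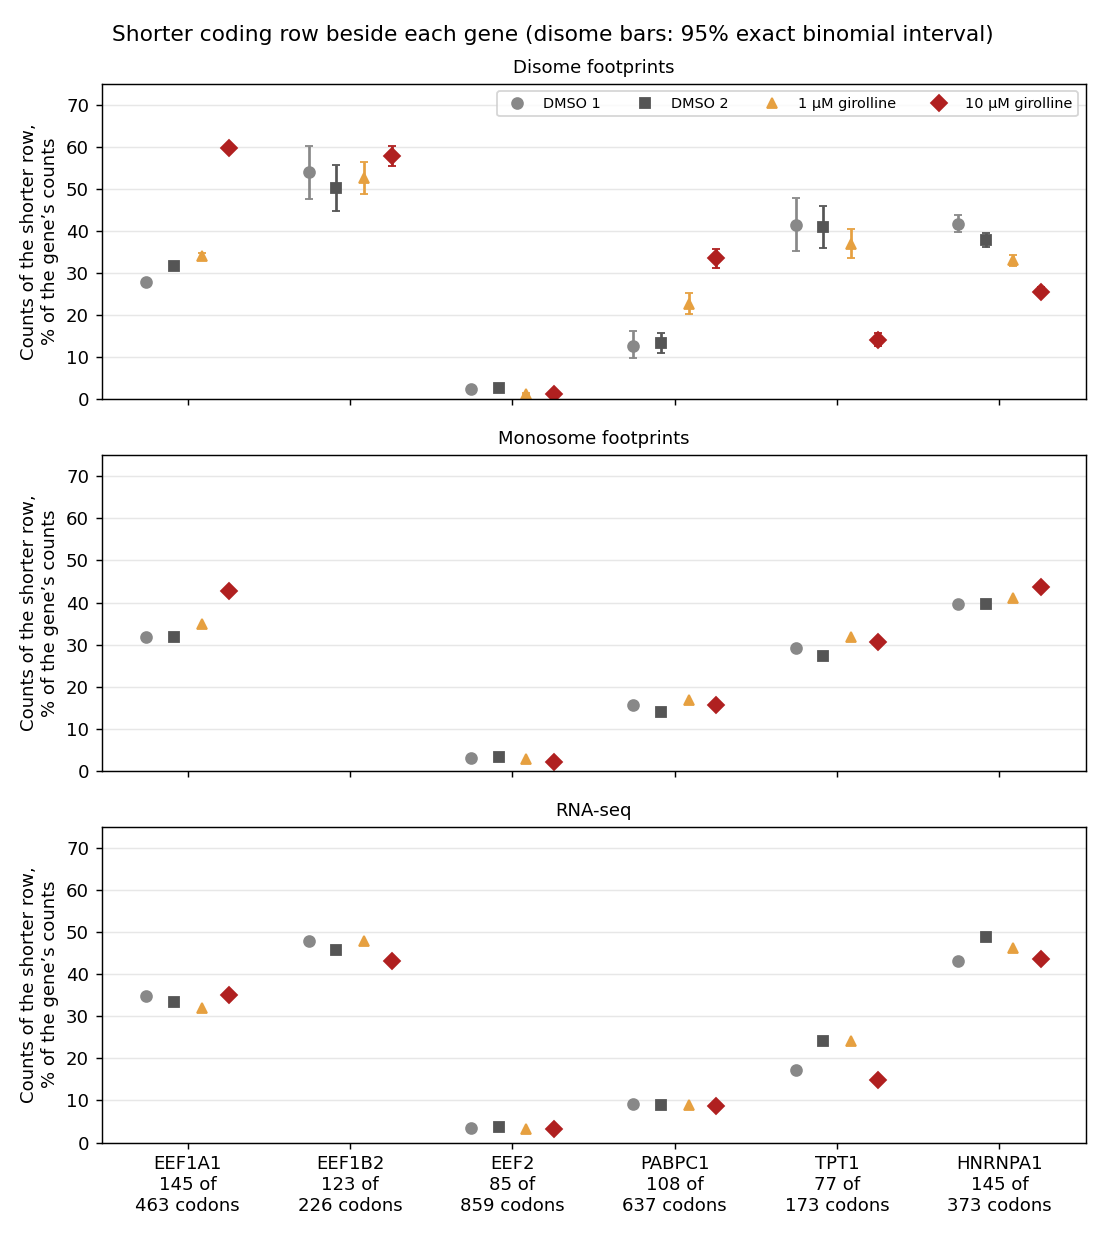
Counts of the shorter coding row beside each gene as a percentage of the gene's own counts in each library, by kind of library (for EEF1B2 the row has no monosome partner); disome bars are 95% exact binomial intervals and cover counting error only. At 10 µM the disome share is 59.8% beside EEF1A1 and 33.5% beside PABPC1, above DMSO, and 14.2% beside TPT1 and 25.6% beside HNRNPA1, below DMSO, whereas the RNA shares beside EEF1A1 and PABPC1 move by a few points and that beside TPT1 runs between 14.9 and 24.2%.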

How the data were processed

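Each library has 1 table deposited by the authors, holding raw, unscaled counts of reads for every transcript and a counted coding length in codons. The submitters' processing notes name hg38, STAR 2.7.0a and CASAVA 1.8. The counter, annotation and treatment of multi-mapping reads are not given in the sources used here. Counted length plus 20 codons in RNA tables, plus 10 in monosome tables and unchanged in disome tables gave the full coding length. Coding rows of the 2 ID systems were paired by a longest common subsequence on that length, which paired 76301 rows, 90.2% of them alike in both tracings. Their summed counts correlated between monosomes and disomes at a Spearman rho of 0.947.

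Rows with identical counts were merged. Each kind was fitted with edgeR 4.0.16 (R 4.3.3) on 4 libraries in 3 groups with TMM scaling, filterByExpr and its two-sided quasi-likelihood F test. P-values were adjusted by Benjamini-Hochberg over all transcripts tested, with a threshold of 0.05. With 1 residual degree of freedom, a dose's lone library is assumed to vary like the DMSO pair. Ratios between kinds were interaction terms in 1 fit of 12 libraries (3 residual degrees of freedom). The biological coefficient of variation was 10.3% for disomes, 3.85% for monosomes and 11.8% for RNA. All 8 genes passed the filter in every kind. The fits were tested on simulated data in which all libraries of a fit varied alike. That simulation cannot check whether a lone library varies like the DMSO pair. DESeq2 1.42.0 was an alternative.

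The members, lists and tests were chosen with earlier results of these data known, and all 8 members are named in every comparison. A further list of elongation and TOP genes was not analysed here, because no table used here pairs the transcript IDs with symbols. Replicate numbers do not pair the libraries.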

Additional observations from a re-analysis of the deposited data

How the results depend on the processing

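No called value changed sign under any alternative run. Of the values of single genes under the alternatives, 1342 kept their side of the threshold, 95 were no longer called and 23 became called. Numbers of the 8 genes called in the main fits were 6 and 5 for disomes at 10 and 1 µM, 8 and 2 for monosomes, 1 and 0 for RNA, 4 and 4 for disome over monosome, and 3 and 0 for monosome over RNA.
With both doses as 1 group, 2 genes were called for disomes (at either dose) and for disome over monosome, and 0 for monosomes, RNA at 10 µM and monosome over RNA at 10 µM. In the fit of all 12 libraries 4 were called for monosomes at 10 µM, 0 at 1 µM, and 2 for RNA at 10 µM. RNA at 10 µM gave 2 with a mean of at least 10 CPM, with 1 transcript per block of 10 rows and with rows paired from the last row back, and 0 by the DESeq2 Wald test.
Replicate numbers of the DMSO libraries did not deviate together (correlations 0.0172, 0.123 and -0.0362). With the replicate block in the fit of 12 libraries, 5 genes were called for monosomes at 10 µM, 0 at 1 µM, and 2 for RNA at 10 µM.
Leaving out each DMSO library in turn gave 2 to 6 genes for monosomes at 10 µM and 0 to 0 at 1 µM, 1 to 5 for RNA at 10 µM and 0 to 1 at 1 µM, 2 to 4 for disome over monosome at 1 µM, and 0 to 1 for monosome over RNA at 1 µM.
Total counts as the only scaling, added after seeing the data, put the median of all transcripts at -0.13 in disomes and at -0.21 in disome over monosome at 10 µM, beside -0.02 and 0.01 in the main fits, a shift of -0.11 and -0.22. The 5 disome rises at 10 µM were called in all 15 alternatives that keep the doses apart. Depth limits EEF2K, with under 40 disome counts in each library.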
